A study of Mus musculus with 6 samples.

Results

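The genes described here are 6 factors of pluripotency, out of 12826 genes in the deposited table. They are the core transcription factors Pou5f1, Sox2 and Nanog and the naive and epiblast genes Zfp42, Dppa4 and Dppa5a. They were found by exact gene name, and the set was chosen by a rule written with the posterior and anterior values of these libraries known. The posterior minus anterior values of the 6 are therefore given as a description, with no test.

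The libraries came from ETX-embryos, structures that form in culture when embryonic, trophoblast and extraembryonic endoderm stem cells of the mouse are put together. The line used carried a GFP reporter of T/Brachyury, a gene of the primitive streak. Trophoblast tissue was dissected off, and the remaining embryonic part was divided along its length. GFP marked the prospective posterior piece, and its absence the prospective anterior one. Each of the 3 ETX-embryos, A, B and C, gave 1 library of each domain, with no treatment in any group. The labels give neither a clone nor the age of the structures. Both pieces of an embryo share its letter, and the 3 embryos are the replicates. Sets of 3 values below are in the order of embryos A, B and C.

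The absolute depth is unknown, because the table holds log2(FPKM + 1), FPKM being a fragment count set relative to transcript length and library size. The relative depth, read from the steps that whole reads leave in low values, was 1, 1.41 and 1.43 in the anterior pieces. It was 2.19, 2.83 and 1.56 in the posterior pieces, so the pieces were closest in embryo C. Of all genes, 13.6% to 27.2% were listed at 0 in the anterior pieces and 5.34% to 20.0% in the posterior pieces. The posterior piece was the deeper in each embryo, so depth and domain cannot be told apart over the 6 libraries. Over 10914 genes tested the posterior minus anterior difference had a median of 0.43 in log2. The reporter gene itself followed the labels in embryos A and B. In embryo C the library labelled anterior C held 42.5 FPKM of T while that labelled posterior C was listed at 0, so each direction that includes embryo C rests on labels that go against T. Of the other streak genes in embryo C, Mixl1 and Wnt3 lay as labelled. Mixl1 was listed at 0 in anterior C and was at 30.4 FPKM in posterior C, and Wnt3 was at 0.90 and 70.1 FPKM. Over the 10 streak and mesoderm markers tested, the median posterior minus anterior difference in embryo C was 4.71 in log2.

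Pluripotency is the capacity of a cell to form all tissues of the embryo, and in the mouse it passes from a naive state before implantation to a primed state in the epiblast that enters gastrulation. The core factors are active through much of this path. Pou5f1 encodes OCT4, a POU factor that binds DNA together with the HMG-box protein SOX2, and Nanog encodes a homeodomain protein that returns in the posterior epiblast when the streak forms. Zfp42 encodes REX1, a zinc finger protein whose loss marks the exit from the naive state. Dppa4 encodes a chromatin protein that pairs with DPPA2, and Dppa5a encodes an RNA-binding KH-domain protein of embryonic stem cells. The 6 genes are not all restricted to the epiblast: Sox2 and Zfp42 are also transcribed in trophoblast, and several are active in germ cells.

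All 6 are protein-coding genes. In GENCODE M21 on build GRCm38, Pou5f1 lies on chromosome 17 (35506018 to 35510772), Sox2 on chromosome 3 (34650405 to 34652461) and Nanog on chromosome 6 (122707489 to 122714633). Zfp42 lies on chromosome 8 (43295063 to 43306980), Dppa4 on chromosome 16 (48283733 to 48294237) and Dppa5a on chromosome 9 (78367052 to 78368177). Sox2 is embedded in the longer Sox2ot transcript, on the same strand. The joined table entry of Sox2ot with a microRNA was listed at 0 in 4 libraries and at 0.09 and 5.88 FPKM in posterior B and C. The annotation also names the pseudogenes Dppa5b, Dppa5c, Nanog-ps1, Nanog-ps2 and Zfp42-ps1, none of which is in the table. How reads shared with them were counted is not stated, so the values of Dppa5a, Nanog and Zfp42 may hold such reads.

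The promoters of Nanog and Zfp42 are shown because they hold letters that the core factors OCT4 and SOX2 are known to bind. Nanog holds POU and SOX letters, and Zfp42 holds POU letters without a match to the SOX motifs searched. Sequences are RefSeq's, build GRCm38.p6, and cover the 250 bases before the start site, 5′ to 3′ along the gene. Entries matched 4 of the 6 genes, Pou5f1, Sox2, Nanog and Zfp42. Capitals mark the matches to an octamer, a SOX motif or a composite of SOX and POU parts. The Nanog window is chr6:122707239-122707488, plus strand, and the Zfp42 window is chr8:43307010-43307259, minus strand.
Nanog: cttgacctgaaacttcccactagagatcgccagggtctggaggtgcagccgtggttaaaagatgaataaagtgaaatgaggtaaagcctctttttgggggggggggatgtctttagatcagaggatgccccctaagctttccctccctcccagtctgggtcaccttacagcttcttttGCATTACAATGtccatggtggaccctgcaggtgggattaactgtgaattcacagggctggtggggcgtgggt
Zfp42: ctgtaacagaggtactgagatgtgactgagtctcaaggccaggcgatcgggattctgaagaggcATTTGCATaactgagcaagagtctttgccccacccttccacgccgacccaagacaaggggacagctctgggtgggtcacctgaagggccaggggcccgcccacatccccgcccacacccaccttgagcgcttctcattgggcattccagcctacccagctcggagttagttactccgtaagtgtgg

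Motifs were searched on both strands. The composite, CATTGT followed after 1 base by ATGC, was found in the Nanog promoter on the minus strand, 72 to 62 bases before the start site, and by construction it overlaps the SOX motif CATTGT there. It was searched for with its published place in the Nanog promoter known. It occurred in 19 of 32851 promoter windows in the table (0.0578%), 2 of them overlapping windows of Nanog. The octamer ATGCNAAT was found in the Zfp42 promoter on the minus strand, 186 to 179 bases before the start site, and is present in 2.86% of all windows. Sox2 held the SOX motif CTTTGT on the minus strand, 206 to 201 bases before its RefSeq start site (16.5% of windows hold it); that window ends at base 34649994, upstream of the GENCODE start given above. Of the 2 Pou5f1 windows, the one near its GENCODE start held none of these motifs, and the other, further downstream, held CATTGT (10.7% of windows). The GC box GGGCGG, present in 32.7% of windows, was found for Sox2, Zfp42 and Pou5f1, and CCACCC, letters that KLF factors bind, in 28.1% of windows, for Zfp42, Pou5f1 and a second window of Nanog. A match is a description of the letters and was not tested as a binding site.

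Each of the 6 genes was higher in the posterior than in the anterior library of all 3 embryos, a pattern that 21.5% of the genes tested shared. For 4 of them, Nanog, Zfp42, Dppa4 and Dppa5a, all 3 posterior libraries lay above all 3 anterior ones, against 12.3% of all genes. Pou5f1 and Sox2 overlapped between the domains. These counts use the values that chose the set and carry no test. All 6 averaged at least 1 FPKM and entered the fit, but Zfp42 and Dppa4 reached it only through the posterior libraries.

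**Figure D1:**
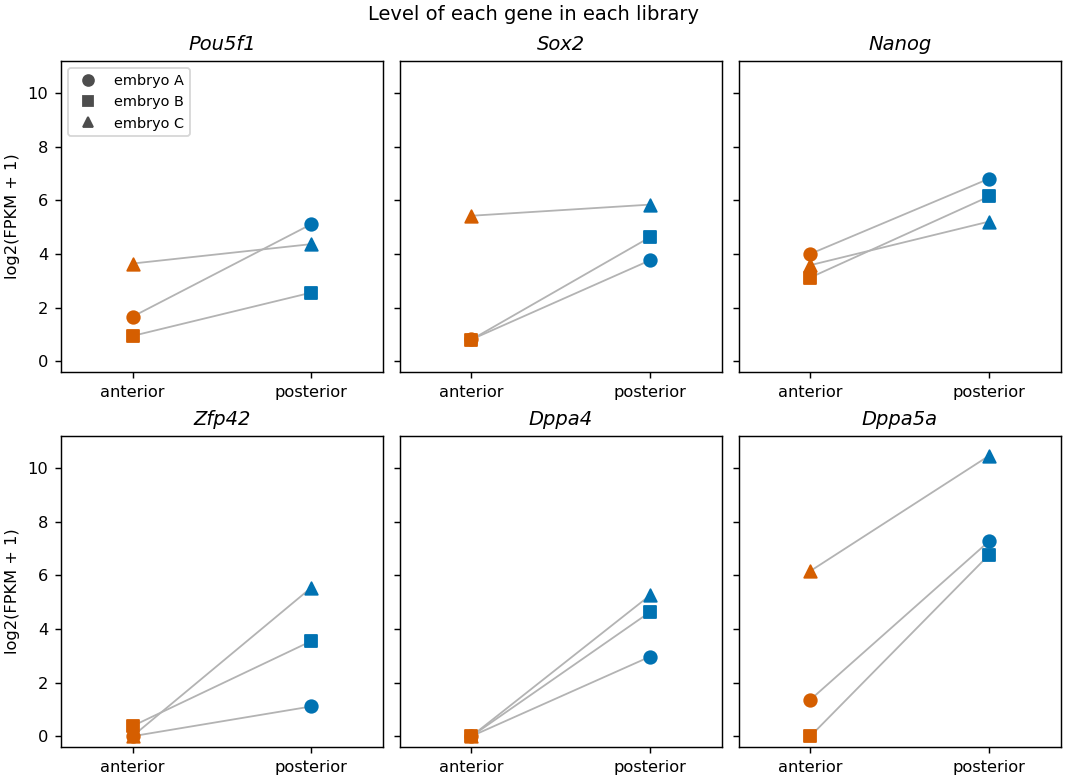
Level of each of the 6 genes, with log2(FPKM + 1) as the vertical axis and a point for every library, anterior (orange) and posterior (blue), with grey lines joining the pieces of embryo A as circles, B as squares and C as triangles. All lines go up, steeply for Dppa5a and, in embryos B and C, for Dppa4 and Zfp42, and nearly flat for Sox2 in embryo C, where both libraries are above 5.

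Among the core factors, Nanog had the smallest spread. It was at 15.1, 7.70 and 11.0 FPKM in the anterior pieces and at 111, 69.9 and 36.0 FPKM in the posterior pieces. The highest anterior library was anterior A and the lowest posterior library posterior C, and they were 1.21 apart in log2(FPKM + 1). The paired difference in log2 was 2.49 ± 0.75 (SD, n = 3), with 2.81 in A, 3.03 in B and 1.63 in C.

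Pou5f1 was at 2.16, 0.92 and 11.5 FPKM in the anterior pieces and at 33.6, 4.89 and 19.7 FPKM in the posterior pieces. Posterior B, the lowest posterior library, was below the library labelled anterior C, so the domains overlapped. The paired difference was 1.93 ± 1.39 in log2, with 3.45 in A, 1.62 in B and 0.73 in C, and its mean was 1.17 without embryo A.

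Sox2 was at 0.75, 0.75 and 42.0 FPKM in the anterior pieces and at 12.6, 23.8 and 56.4 FPKM in the posterior pieces. The library labelled anterior C had more Sox2 than posterior A and B. Within embryo C the pieces differed by 0.42 in log2, against 2.96 in A and 3.83 in B, so the mean of 2.40 had an SD of 1.77. When each library was centred on its median gene, the embryo C difference of Sox2 became -0.13, the single case among the 18 gene and embryo pairs in which centring or quantile normalization turned a direction.

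Of the naive and epiblast genes, Dppa4 had a listed value of 0 in all 3 anterior libraries and stood at 6.85, 23.9 and 37.4 FPKM in the posterior pieces. No fold is given against libraries at 0, and the paired difference was 4.29 ± 1.19 in log2. That size depends on the pseudocount, and it was 7.53 with one of 0.1. Zfp42 was listed at 0 in anterior A and C, at 0.30 FPKM in anterior B, and at 1.16, 10.7 and 45.7 FPKM in the posterior pieces. Its paired difference was 3.28 ± 2.22 in log2, 5.75 with a pseudocount of 0.1 and 2.14 without embryo C. Posterior A held little Zfp42, and its difference from anterior A, 1.11 in log2, was 0.12 once libraries were centred on their median gene.

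Dppa5a reached the highest level of the 6 in 4 libraries. It was at 1.57, 0 and 70.9 FPKM in the anterior pieces and at 154, 108 and 1419 FPKM in the posterior pieces. Both libraries of embryo C exceeded the corresponding libraries of A and B, and the gap between the library labelled anterior C and posterior B was 0.61 in log2. The paired difference was 5.67 ± 1.25, with 5.92 in A, 6.77 in B and 4.30 in C.

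**Figure D2:**
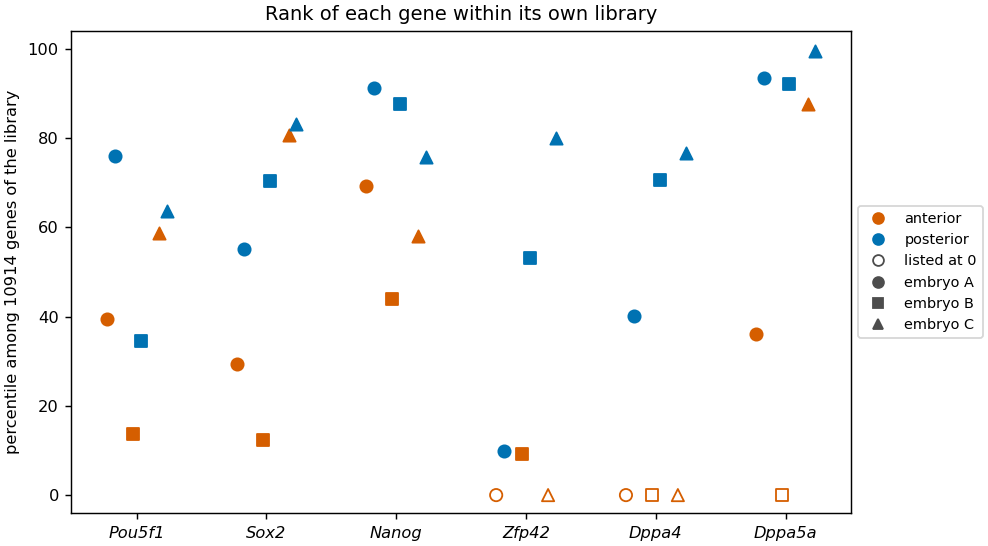
Percentile of each gene among the 10914 genes tested in the same library (vertical axis), a rank that no scaling of a library can change, with anterior in orange, posterior in blue, embryo A as circles, B as squares and C as triangles, and open symbols for genes listed at 0. Open symbols are drawn at 0 because no percentile was given to them. Dppa5a lies between percentiles 92.1 and 99.6 in the posterior pieces, and Sox2 lies at 80.8 and 83.2 in the 2 libraries of embryo C.

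Ranks within a library need no scale between libraries, and not all of them followed the FPKM. In the posterior pieces Nanog stood at percentiles 91.3, 87.6 and 75.9 of the genes tested, and in the anterior libraries at 69.4, 43.9 and 58.2. Pou5f1 stood at 76.1, 34.6 and 63.8 in the posterior and at 39.5, 13.6 and 58.8 in the anterior libraries. By rank, Pou5f1 in posterior B was thus below anterior A, although its FPKM was higher. Zfp42 stood at 9.87 in posterior A, 53.1 in B and 80.1 in C. It stood at 9.23 in anterior B, close to posterior A, and was listed at 0 in anterior A and C. No percentile is given for a gene listed at 0, so ranks do not show a rise of Zfp42 in embryo A. Dppa5a was at the 99.6 percentile in posterior C and at 87.7 in the library labelled anterior C.

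The posterior pieces of the 3 embryos differed in which of the genes was high. From high to low, Nanog had the order A, B, C, with a ratio of 3.09 between the highest and lowest. Zfp42, Dppa4 and Sox2 had the opposite order, C, B, A, with ratios of 39.4, 5.46 and 4.47. Pou5f1 was ordered A, C, B (ratio 6.87) and Dppa5a C, A, B (ratio 13.1). With 1 posterior library per embryo, neighbours in these orders have no replicate error of their own.

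The amount by which the naive genes differed more between the pieces than the core factors varied among the 3 embryos. With 1 library per piece, this variation cannot be tested. The mean of the 3 naive genes differed by 3.33, 4.86 and 5.04 in log2 between the pieces of A, B and C, and the mean of the 3 core factors by 3.07, 2.82 and 0.92. The naive minus core change was thus 0.26, 2.04 and 4.12, or 2.14 ± 1.93 (SD, n = 3 embryos). The largest value is that of embryo C, whose labels go against T, although Mixl1 and Wnt3 lay as labelled there. This value would change sign if the labels of embryo C were exchanged. The mean naive minus core change was 1.15 without embryo C and 4.10 with a pseudocount of 0.1. Without Dppa5a it was -1.03, 1.08 and 4.48 in A, B and C, so embryo A turned direction.

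**Figure D3:**
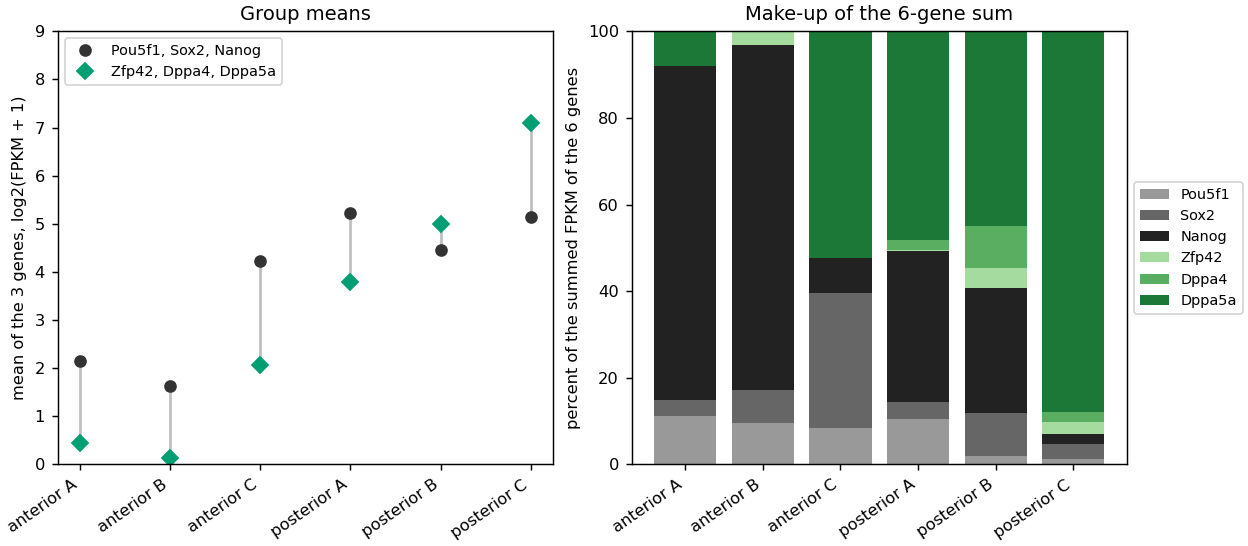
Left, mean log2(FPKM + 1) of the 3 core factors (black circles) and the 3 naive and epiblast genes (green diamonds) in each of the 6 libraries; right, percent of the summed FPKM of the 6 genes that each contributes, as stacked bars. The naive mean is below the core mean in the 3 anterior libraries and posterior A and above it in posterior B and C, and Dppa5a makes up 87.9% of the sum in posterior C.

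Within libraries, the naive mean lay below the core mean by 1.50 to 2.16 in log2 in the anterior libraries. In the posterior libraries the naive minus core level was -1.44, 0.54 and 1.95 in A, B and C. Of the summed FPKM of the 6 genes, the naive genes made up 8.04%, 3.11% and 52.4% in the anterior pieces and 50.8%, 59.2% and 93.1% in the posterior pieces. Most of the naive share was Dppa5a, except in anterior B, where Dppa5a was listed at 0. With it left out, Zfp42 and Dppa4 made up 0%, 3.11% and 0% in the anterior pieces and 4.84%, 26.0% and 42.6% in the posterior pieces. Among the core factors, Nanog made up 70.7% to 83.8% of the core sum in both libraries of A and B, but 17.0% and 32.1% in anterior and posterior C, where Sox2 was the highest core factor.

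The rule that chose the genes did not use differences among the 3 embryos, which were tested with limma's F test over all genes. None of the 6 passed (adjusted p 0.996 to 0.998), and 0 of all genes did (0%), where 2.77% of all genes had an unadjusted p under 0.05. Dppa5a (unadjusted p 0.00122) and Sox2 (0.0426), both highest in embryo C, were among those 2.77%. Whether the change between domains itself differs among embryos cannot be tested with 1 library per piece.

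Over the 6 libraries, Pearson correlations of log2(FPKM + 1) within the naive genes were 0.93 for Zfp42 with Dppa4, 0.81 for Dppa4 with Dppa5a and 0.75 for Zfp42 with Dppa5a. Those within the core were 0.76 for Pou5f1 with Sox2, 0.67 for Pou5f1 with Nanog and 0.44 for Sox2 with Nanog. Between the groups they ran from 0.39 for Pou5f1 with Zfp42 to 0.86 for Pou5f1 with Dppa5a and 0.93 for Sox2 with Dppa5a. The 6 points share domain, depth and embryo, and the values are descriptions.

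The genes with the most similar profile were read from the same correlations. For Nanog they were Ppia, a cyclophilin used as a housekeeping gene, the splicing factor gene Sf3b3 (0.99 each) and Phb (0.989), a mitochondrial prohibitin. Ppia was at 9.48, 9.13 and 9.25 in the anterior pieces and at 10.2, 9.90 and 9.68 in the posterior pieces, so it had the order of Nanog over a range of about 1 in log2. For Dppa4 they were the small nucleolar RNA Snora17 (0.999), Fbxo16 (0.996) and the naive factor gene Esrrb (0.995), all at 0 in the 3 anterior libraries. Zfp42 was closest to Zfp719 (0.997), Txnip (0.996) and Prkch (0.995), Dppa5a to Ykt6 (0.998), Dnalc4 (0.997) and Cask (0.995), Sox2 to Trim12c (0.994), Ctnnal1 (0.991) and Fam54a (0.99), and Pou5f1 to Nol10 (0.993), Ect2 (0.983) and Stard3 (0.979). Of these 18 neighbours, 4 were still among the closest 3 after median centring and 7 without anterior A.

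The wider pluripotency network was followed in 4 lists that leave out the 6 genes. No gene of any list passed between domains (limma adjusted p), as was the case for all genes (0%). Of all genes, 64.9% had a higher mean in the posterior domain. At an unadjusted p under 0.05, 7.24% of all genes lay higher in posterior and 0.788% in anterior pieces. The naive network list had 10 of 13 tested genes with a higher mean in the posterior domain (median difference 1.43, against 0.43 for all genes), 2 of them at an unadjusted p under 0.05, as was 1 gene higher in the anterior domain. By embryo its median was 0.93, -0.27 and 3.26 in A, B and C, beside 0.91, 0.02 and 0.17 for all genes. Esrrb, an orphan nuclear receptor of naive cells, was at 0 in the anterior pieces and at 1.28, 2.56 and 2.78 in the posterior pieces in log2(FPKM + 1). Klf5 was at 2.52, 4.37 and 2.84 against 5.15, 4.95 and 6.09, and Fbxo15, a classical OCT4 target, at 0 against 1.88, 1.03 and 2.0.

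Not all naive genes lay this way. Tet2, an enzyme that oxidises methylated cytosine, was at 5.19, 4.86 and 4.42 in the anterior pieces and at 3.27, 2.80 and 0.64 in the posterior pieces (difference -2.59 ± 0.92, SE; limma adjusted p 0.571). Klf4 was at 6.28, 6.83 and 2.35 against 3.61, 3.41 and 5.11, so it was lower in the posterior piece of A and B and higher in that of C. Dppa2, the partner of Dppa4, belongs to the list of genes shared by naive and primed pluripotency and is not one of these naive genes. It was at 0, 0.19 and 0 against 2.59, 1.76 and 3.02. It therefore had the pattern of Dppa4, near 0 in the anterior libraries and above it in all posterior ones.

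**Figure D4:**
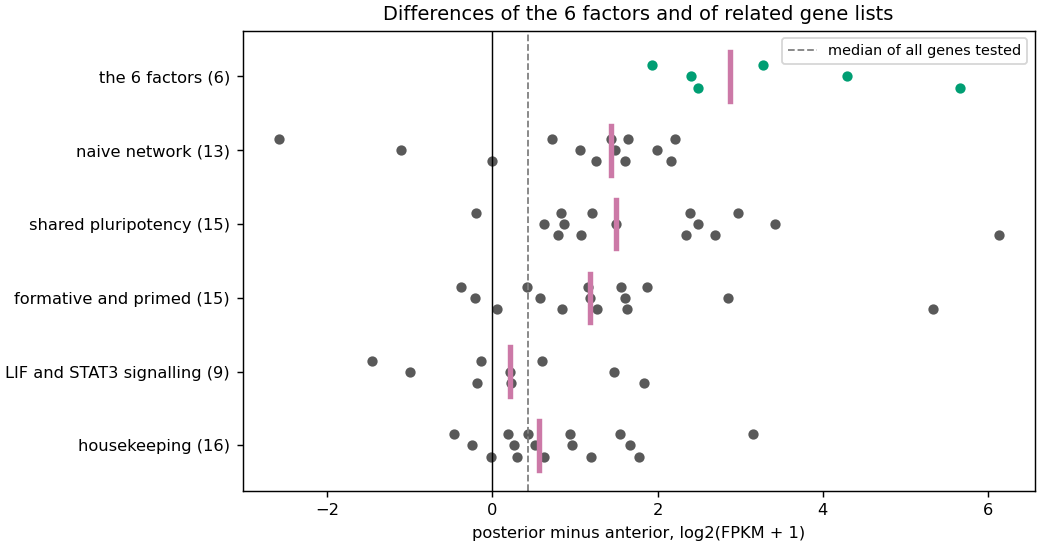
Posterior minus anterior difference in log2(FPKM + 1) on the horizontal axis, 1 point per gene, for the 6 factors (green) and the tested genes of 5 related lists (grey, number in brackets), with list medians as pink bars and the median of all genes as a dashed line. The 6 factors, chosen with these values known, lie between 1.93 and 5.67, and the medians of the LIF and housekeeping lists lie near that of all genes.

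Genes shared by naive and primed pluripotency had 14 of 15 tested members with a higher mean in the posterior domain (median difference 1.50), beside 64.9% of all genes. Of the shared genes, 6 were higher there at an unadjusted limma p under 0.05. Among these were Tdgf1, the Nodal co-receptor, at 0 in the anterior pieces and at 5.51, 5.49 and 7.39 in the posterior pieces, and Lin28a, an RNA-binding protein gene, at 1.23, 5.69 and 6.12 against 7.46, 6.57 and 7.92. The corepressor gene Trim28 was at 3.34, 4.33 and 5.51 against 6.51, 6.15 and 7.55. Limma adjusted p-values of these 3 ran from 0.282 to 0.566.

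Formative and primed genes had 13 of 15 with a higher mean in the posterior domain (median difference 1.18), beside 64.9% of all genes and 13 of 16 housekeeping genes. Of the formative and primed genes, 2 were higher there at an unadjusted limma p under 0.05. By embryo the median was 3.91, 0.54 and 0.01, largest in A, while that of the naive network was largest in C. Etv5, an ETS factor, was at 0.13, 1.55 and 0.89 against 6.42, 5.68 and 6.47, and Lef1, a Wnt effector, at 1.64, 1.76 and 0.35 against 4.23, 3.61 and 4.46. The LIF and STAT3 pathway, which sustains naive cells in culture, had 5 of 9 tested genes higher in the posterior domain (median 0.21), none at an unadjusted p under 0.05. Its transducer Stat3 was at 1.96, 4.34 and 0.59 against 3.55, 4.30 and 4.52. Housekeeping genes had a median of 0.57, with 1 of them, Gusb, higher in the posterior domain at an unadjusted p under 0.05.

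Markers of other cells varied among the libraries beside the 6 genes. Of all genes, 22.3%, 13.6% and 27.2% were listed at 0 in the anterior pieces and 6.30%, 5.34% and 20.0% in the posterior pieces. Counts of markers above 0, here and in the next paragraphs, are to be read beside these shares. Of 17 visceral endoderm markers in the table, 15, 15 and 5 were above 0 in the anterior pieces and 15, 17 and 13 in the posterior pieces. Their summed level was 1467, 1765 and 136 FPKM in the anterior pieces and 1014, 3698 and 976 FPKM in the posterior pieces. Spink3 made up most of the posterior sums, at 753, 3276 and 634 FPKM, and was at 486, 304 and 11.1 FPKM in the anterior pieces. The list mean relative to the median gene gave another order. It was 1.54, 1.15 and -1.96 in the anterior pieces and -0.15, 0.72 and -0.02 in the posterior pieces. In the library labelled anterior C, Sox2, Pou5f1 and Dppa5a were highest among the anterior libraries. Ttr, Rbp4, Hnf4a, Sox17 and Gata4 were all listed at 0 there, and Rbp4 also in posterior C. Lrp2, another visceral endoderm marker, lay the other way. Its anterior levels were 71.2, 90.2 and 107 FPKM, highest in C, and its posterior levels 7.32, 9.05 and 29.1 FPKM. Lrp2 made up most of the anterior C sum of 136 FPKM. Of 14 markers of parietal endoderm and of XEN cells (the endoderm stem cells of the mixture), 13, 14 and 11 were above 0 in the anterior pieces and 14, 14 and 12 in the posterior pieces, with sums of 1238, 1858 and 338 against 386, 403 and 818 FPKM. The core mean relative to the median gene was -0.36, -1.82 and 1.35 in the anterior pieces, and 1.73, 1.08 and 1.73 in the posterior pieces. In bulk pieces, fewer epiblast cells and less RNA per cell cannot be told apart, and the part of endoderm in the values of the 6 genes was not tested.

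**Figure D5:**
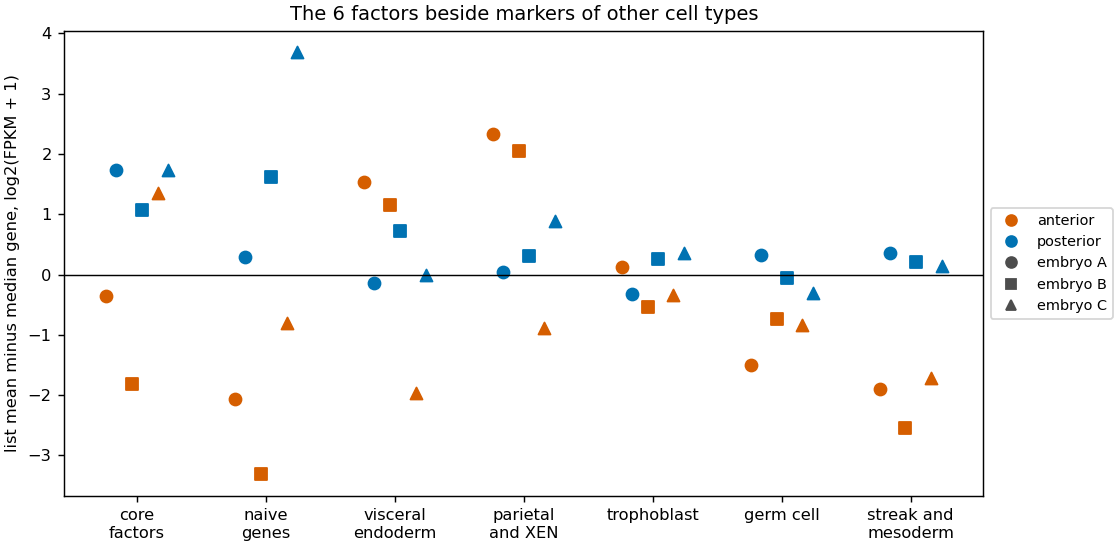
Mean of each gene group minus the median gene of the library, in log2(FPKM + 1) (vertical axis), for the core factors, the naive genes and 5 marker lists, 1 point per library, anterior in orange and posterior in blue, embryo A as circles, B as squares and C as triangles. Anterior A and B are the highest libraries for parietal endoderm and XEN markers and the lowest for core factors, while anterior C is lowest for both endoderm lists.

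Trophoblast markers bear on Sox2 and Zfp42, which that lineage also transcribes. Of 15 in the table, 11, 10 and 12 were above 0 in the anterior pieces and 15, 15 and 13 in the posterior pieces, with sums of 369, 573 and 424 against 402, 409 and 788 FPKM. In each embryo the share of all genes above 0 was likewise higher in the posterior piece. Relative to the median gene, the list mean was 0.13, -0.53 and -0.34 in the anterior pieces and -0.32, 0.25 and 0.36 in the posterior pieces. It was thus highest in posterior C, the library with the most Zfp42 and Sox2, where only Elf5 and Gata2 were listed at 0. Elf5, a defining trophoblast factor, was also listed at 0 in the anterior pieces, and was at 0.57 and 3.18 in log2(FPKM + 1) in posterior A and B. Krt18, the highest trophoblast marker, was at 7.16, 8.01 and 7.14 in the anterior pieces and at 7.46, 7.59 and 8.75 in the posterior pieces. In FPKM it was at 141.6, 257.5 and 140.4 against 175.5, 191.6 and 429. Krt8, another keratin gene, was at 134, 151 and 41.2 against 61.6, 40.7 and 123 FPKM. The sums thus rest largely on keratin genes, and which cells these came from was not tested. Esrrb, Tfap2c and Eomes of this list are also genes of naive, germ or streak cells.

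Germ cell markers, 8 in the table, had 5 above 0 in each anterior library and 7, 8 and 6 in the posterior pieces, with sums of 14.4, 137 and 164 against 258, 244 and 171 FPKM. More of all genes were also above 0 in the posterior piece of each embryo. Tfap2c, a germ cell and trophoblast factor, was at 0, 2.13 and 1.14 in the anterior pieces and at 4.45, 5.09 and 5.73 in the posterior pieces. Ifitm1 and Ifitm3 had the highest means of this list. Ifitm1 was at 0.78, 5.75 and 6.20 against 6.52, 6.33 and 6.37. Ifitm3 was at 1.34, 5.43 and 6.48 against 6.84, 6.90 and 1.79, so it was lower in the posterior piece of embryo C. Of 12 streak and mesoderm markers, 3, 4 and 5 were above 0 in the anterior pieces and 12, 11 and 10 in the posterior pieces. Of 5 neural markers, 2, 1 and 3 were above 0 in the anterior pieces and 3, 3 and 1 in the posterior pieces, with sums of at most 17.0 FPKM. The part of trophoblast, germ and streak cells in the values of the 6 genes was not tested.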

How the data were processed

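The 6 libraries were made with Smart-seq2 from pieces of ETX-embryos. Per the labels' protocols, alignment was to Ensembl version 38.77 of the mouse and quantification was with HTSeq-count. TopHat2 2.0.4, Cufflinks 2.0.2 and build mm10 are named in the submitters' processing notes, without their role. The authors deposited log2(FPKM + 1) for 12826 genes. The scale was read from the values: back-transformed entries above 3 were numbers of 6 or fewer significant digits in 99.1% to 99.5% of entries of a library.

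The 10914 genes that averaged 1 FPKM or more were fitted with limma 3.58.1 in R 4.3.3, two-sided, with a mean-variance trend and the embryo as a block, and p-values were adjusted over all genes by the Benjamini-Hochberg method at 0.05. The fit has 2 residual and 7.5 prior degrees of freedom. Pairing comes from the dissection; after subtracting group means, the 2 pieces of an embryo correlated at -0.069, 0.037 and -0.027 in A, B and C. Relative depth is the commonest ratio to anterior A among genes under 1 FPKM, a step that held 6.68% to 13.9% of them (tolerance 0.01 in log2). The fit was tested on simulated data. A fold on this scale understates the change of low genes, and an exact 0 is given as listed at 0.

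The members, lists and motifs were chosen with earlier results of these data known. Named are the 6 members, the 4 genes of each network list with the smallest unadjusted p, the 3 genes most correlated with each member, and the 3 markers of each cell type list with the highest mean. Not every gene so named is printed. Dppa2, Klf4, Elf5, Gata2, Ttr, Rbp4, Hnf4a, Sox17, Gata4 and Eomes were named after their values were seen. Alternatives were another pseudocount, other filters, no block, no trend, median centring, quantile normalization, and leaving out each embryo or anterior A.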

Additional observations from a re-analysis of the deposited data

How the results depend on the processing

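With no gene called, counts between domains stayed at 0 under all 11 alternatives. At an unadjusted p under 0.05 the split of posterior-high to anterior-high genes was 790 to 86 (90.2% posterior), 527 to 276 (65.6%) after quantile normalization and 429 to 297 (59.1%) after median centring. It was 617 to 191 without anterior A alone, and 348 to 99, 405 to 36 and 898 to 140 without embryo A, B and C. With no replicate block it was 912 to 119 and 0 genes passed. Each of the 6 genes kept a higher posterior mean under its 8 alternatives. This direction was known when the set was chosen, so its persistence is a description. Leaving out the block cannot change a mean difference. With a pseudocount of 0.1 the difference grew from 4.29 to 7.53 for Dppa4. It grew from 3.28 to 5.75 for Zfp42 and from 5.67 to 6.98 for Dppa5a. The naive minus core change, 2.14, was 4.10 with a pseudocount of 0.1 and 1.15 to 3.08 when 1 embryo was left out. Without Dppa5a, an alternative added after seeing the data, it was 1.51. Genes that differed among embryos numbered 0, but 3 with no filter, 3 after quantile normalization, 3 after median centring, and 0 to 4 when 1 embryo was left out (4 without A). At an unadjusted p under 0.05 they numbered 302, and 533, 120 and 171 without embryo A, B and C. No alternative brought 1 of the 6 factors past that test (lowest limma adjusted p 0.312, without embryo A). Of the 18 closest neighbours, 4 were shared after median centring and 7 without anterior A. The cause of these shifts was not tested. Unknown depth limits what can be said of genes listed at 0 in the shallower anterior libraries.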
